A study of Mus musculus with 2 samples.

Results

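The 10 genes described here encode secreted inhibitors, a ligand, receptors, effectors and a transcriptional target of Wnt signalling: Sfrp1, Sfrp2, Wnt7b, Lgr4, Lgr5, Lrp5, Lrp6, Ctnnb1, Tcf7l2 and Axin2. They were chosen as listed gene symbols and not by a cut on their measured values, out of 31053 genes in each of 2 single-cell RNA libraries. Earlier results of these data were known when the list was chosen. Both libraries held luminal epithelial cells of the mammary gland, sorted by flow cytometry from FVB/NJ mice at 3.5 months of age. The WT library came from Sox9-GFP mice, and the C3-TAg library from Sox9-GFP;C3-TAg mice, so that both carried the Sox9-GFP reporter and differed by the transgene. In the C3-TAg transgene a rat prostatic steroid-binding protein promoter drives the simian virus T antigens, oncoproteins that bind the p53 and Rb proteins, in mammary epithelium. There was 1 library per group, and the labels do not say how many animals entered it. No test between the groups was therefore possible, and genotype cannot be told apart from any other difference between the libraries.

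Wnt ligands bind Frizzled receptors together with the co-receptors LRP5 and LRP6, which stops the destruction of beta-catenin and lets it act with TCF and LEF proteins on target genes. Secreted Frizzled-related proteins bind Wnt ligands outside the cell, and R-spondins raise Wnt responses through the LGR receptors. In the mammary gland, hormone-sensing luminal cells carry the oestrogen and progesterone receptors and secrete Wnt ligands such as WNT4, whereas the other luminal lineage gives rise to the milk-producing cells.

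Cells were put into 3 classes per library by a rule that used none of the 10 genes. A cell was hormone-sensing where Areg, Pgr, Esr1 and Cited1 together made up at least 5 of 10000 UMIs (unique molecular identifiers, each standing for 1 captured transcript). Every other cell was casein-high where Csn1s1, Csn1s2a, Csn2 and Csn3 together held at least 0.5% of its UMIs, and casein-low below that. The WT library gave 2718 hormone-sensing, 3745 casein-high and 576 casein-low cells of 7039 kept. The C3-TAg library gave 2024, 2492 and 3401 of 7917. These classes are ranges of a score and not cell types: 66 WT and 362 C3-TAg cells had a hormone score from 3 to 5, and 146 and 356 had one from 5 to 10. For the casein share, 273 WT and 401 C3-TAg cells lay between 0.2 and 0.5%, and 354 and 495 between 0.5 and 1%.

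Luminal markers were present in every class, and some other features of the cells touch the results. The 4 luminal markers Krt8, Krt18, Krt19 and Epcam summed to between 9434 and 24907 CPM, the level scaled to a total of 1000000 UMIs, in the 6 library-class groups. Hormone-sensing cells had Pgr at 119 CPM (WT) and 105 CPM (C3-TAg), against at most 6.53 CPM in the other classes. Pgr and the hormone score belong to the class rule, so their differences between classes follow from it. Of markers outside the rule, Prlr was at 2504 (WT) and 1505 CPM (C3-TAg) in hormone-sensing cells, against at most 289 in the other classes. Foxa1 was at 110 and 95.4 CPM, against at most 19.2. The median cell of each hormone-sensing class had no basal marker UMI, and the median hormone scores were 41.2 (WT) and 35.5 (C3-TAg) per 10000. In the C3-TAg casein-high and casein-low classes the median cell had 2.94 and 3.02 basal marker UMIs per 10000, where Krt14 was at 463 and 411 CPM and Krt5, a defining basal keratin, at 0.0698 and 0.836 CPM. The 9 basal markers summed to 23.7, 42.4 and 319 CPM in WT hormone-sensing, casein-high and casein-low cells and to 324, 490 and 817 CPM in C3-TAg. The 6 fibroblast markers summed to 703, 4.85 and 124 CPM in WT and 139, 2.13 and 15.7 in C3-TAg, of which Dcn alone made up 702 CPM in WT and 136 in C3-TAg hormone-sensing cells, while Lum was at 0 in both. Immune markers summed to at most 22.5 CPM and endothelial and pericyte markers to at most 31.2 CPM, both in WT casein-low cells. Their part in the results was not tested. Different clusters held most of each class in the 2 libraries: clusters 1 (WT) and 6 (C3-TAg) for hormone-sensing, 3 and 2 for casein-high, and 5 and 4 for casein-low. At least 2 UMIs of the 20 G2M genes were found in 1.91 to 2.26% of the cells of the WT classes, but in 21.6% of C3-TAg hormone-sensing, 77.2% of casein-high and 80.1% of casein-low cells. The libraries shared 17 barcodes among kept cells.

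The C3-TAg hormone-sensing class was mixed. Of its 2024 cells, 375 lay outside the 2 clusters that carried Pgr (clusters 1 and 6), as did 35 of the 2718 WT cells. Those 375 cells had Pgr at 11.1 CPM, Krt14 at 428 CPM and the proliferation marker Mki67 at 267 CPM, and they entered the class mostly through Areg, at 929 CPM. The 1649 C3-TAg cells inside these clusters had 133, 12.6 and 4.45 CPM of Pgr, Krt14 and Mki67. Results in hormone-sensing cells are therefore given for the whole class and for the cells inside the receptor clusters, a split chosen after the data had been seen.

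RefSeq promoter entries (GRCm38.p6) matched 5 of the 10 genes, with 7 entries in all. The 250 bases before the annotated start are shown for 4 of them. Sfrp2 and Lgr4 held the same 8-base motif at almost the same distance from their starts, and differed in how their levels compared between the libraries. Axin2 is shown as the standard transcriptional target of the pathway. Tcf7l2 is shown for an inner start that was the one member window with a TCF and LEF core motif. Capitals mark the motifs found, and every sequence is written from 5′ to 3′ on the plus strand.
Sfrp2, chr3:83766071-83766320: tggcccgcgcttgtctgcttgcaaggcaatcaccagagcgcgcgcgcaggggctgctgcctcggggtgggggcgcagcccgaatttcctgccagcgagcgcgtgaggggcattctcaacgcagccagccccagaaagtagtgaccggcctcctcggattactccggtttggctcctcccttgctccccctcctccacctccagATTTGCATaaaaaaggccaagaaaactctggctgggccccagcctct
Lgr4, chr2:109917397-109917646: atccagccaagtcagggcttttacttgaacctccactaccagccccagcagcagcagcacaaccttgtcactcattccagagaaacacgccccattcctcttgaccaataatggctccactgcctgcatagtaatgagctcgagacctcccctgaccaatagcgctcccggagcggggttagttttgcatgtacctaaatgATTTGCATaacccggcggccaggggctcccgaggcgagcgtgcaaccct
Axin2, chr11:108920099-108920348: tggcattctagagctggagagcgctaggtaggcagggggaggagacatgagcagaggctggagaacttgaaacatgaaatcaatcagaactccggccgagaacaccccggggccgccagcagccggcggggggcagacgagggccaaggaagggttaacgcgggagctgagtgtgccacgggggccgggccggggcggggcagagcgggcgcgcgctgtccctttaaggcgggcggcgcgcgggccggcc
Tcf7l2, inner start, chr19:55895071-55895320: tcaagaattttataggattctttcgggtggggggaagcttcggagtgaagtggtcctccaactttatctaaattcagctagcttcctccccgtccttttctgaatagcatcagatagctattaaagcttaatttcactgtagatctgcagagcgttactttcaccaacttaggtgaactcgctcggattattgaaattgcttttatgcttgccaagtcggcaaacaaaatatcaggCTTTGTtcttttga
Both strands were searched for CTTTGA and CTTTGT, the core bound by TCF and LEF proteins, for TTCNNNGAA, the spaced palindrome bound by STAT factors, and for ATTTGCAT, the octamer bound by POU factors. The octamer was added to the search after the sequences had been seen. None of the matches overlapped another. ATTTGCAT began 47 bases before the start of Sfrp2 and 49 bases before that of Lgr4, and CTTTGT began 14 bases before the inner start of Tcf7l2. The Axin2 window held none of the 4 motifs. Of 32851 promoter windows of the same length, 13.8% held CTTTGA, 16.5% CTTTGT, 7.02% TTCNNNGAA and 1.60% ATTTGCAT. A match of letters describes the window and does not show that a factor binds there.

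By the GENCODE vM21 annotation of GRCm38, the inhibitors lie at chr8:23411502-23449632 (Sfrp1, plus strand) and chr3:83766321-83774316 (Sfrp2, plus strand). Wnt7b spans chr15:85535437-85582473 on the minus strand. The receptor genes span chr2:109917647-110014257 (Lgr4, plus), chr10:115450311-115587780 (Lgr5, minus), chr19:3584828-3686564 (Lrp5, minus) and chr6:134446476-134566965 (Lrp6, minus). Ctnnb1 spans chr9:120929216-120960507, Tcf7l2 chr19:55741820-55933654 and Axin2 chr11:108920349-108950783, each on the plus strand. All are protein-coding, and the kit counted molecules near the 3′ end of their transcripts.

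The first question was how the pathway genes differed between C3-TAg and WT luminal cells of the same class. Levels are UMIs summed over the cells of a class, in CPM. Brackets after a level or a log2 ratio hold its exact Poisson 95% interval, which covers counting error only and not differences between animals. Genes with at least 20 UMIs over both sides count as measured, and those that differ by at least 1.5-fold are called higher or lower. Of the secreted inhibitors, Sfrp2 was far lower in C3-TAg casein-high and casein-low cells, and Sfrp1 was higher in both. Wnt7b was lower in the hormone-sensing and casein-low classes. Axin2 was higher in casein-low cells, from few UMIs. The co-receptors, beta-catenin and Tcf7l2 were within 1.5-fold in all 3 classes. With at least 2000 UMIs and at most 5% mitochondrial UMIs per cell, Tcf7l2 passed in hormone-sensing cells (log2 ratio 0.81), and as a mean over cells of each cell's CPM Lrp6 passed in casein-low cells (0.64). The first of these settings kept 993 of 2718 WT and 594 of 2024 C3-TAg hormone-sensing cells.

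In hormone-sensing cells 3 of the 8 measured genes passed 1.5-fold, 1 higher and 2 lower, where 32.0% of all measured genes did, 22.8% higher and 9.20% lower. Inside the receptor clusters it was 1 of 6, Wnt7b, where 21.9% of all genes passed, 12.3% higher and 9.65% lower. In casein-high cells 2 of 8 passed, 1 in each direction, against 41.6% of all genes, 31.1% higher and 10.5% lower. In casein-low cells 4 of 9 passed, 2 in each direction, against 51.9%, with 37.2% higher and 14.7% lower. Scaling by edgeR's TMM factors, which lowered every C3-TAg over WT log2 ratio by 0.21, 0.34 and 0.30 in these classes, left the members' counts as they were. It moved those over all genes to 16.4% higher and 15.4% lower, 17.5% in each direction, and 24.0% higher and 21.3% lower. The median log2 ratio of the measured members was 0.12, 0.14 and 0.08 in these classes, beside 0.15, 0.32 and 0.35 over all measured genes. With 8 or 9 measured members these shares rest on 1 to 4 genes, and the account turns on single genes.

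**Figure D1:**
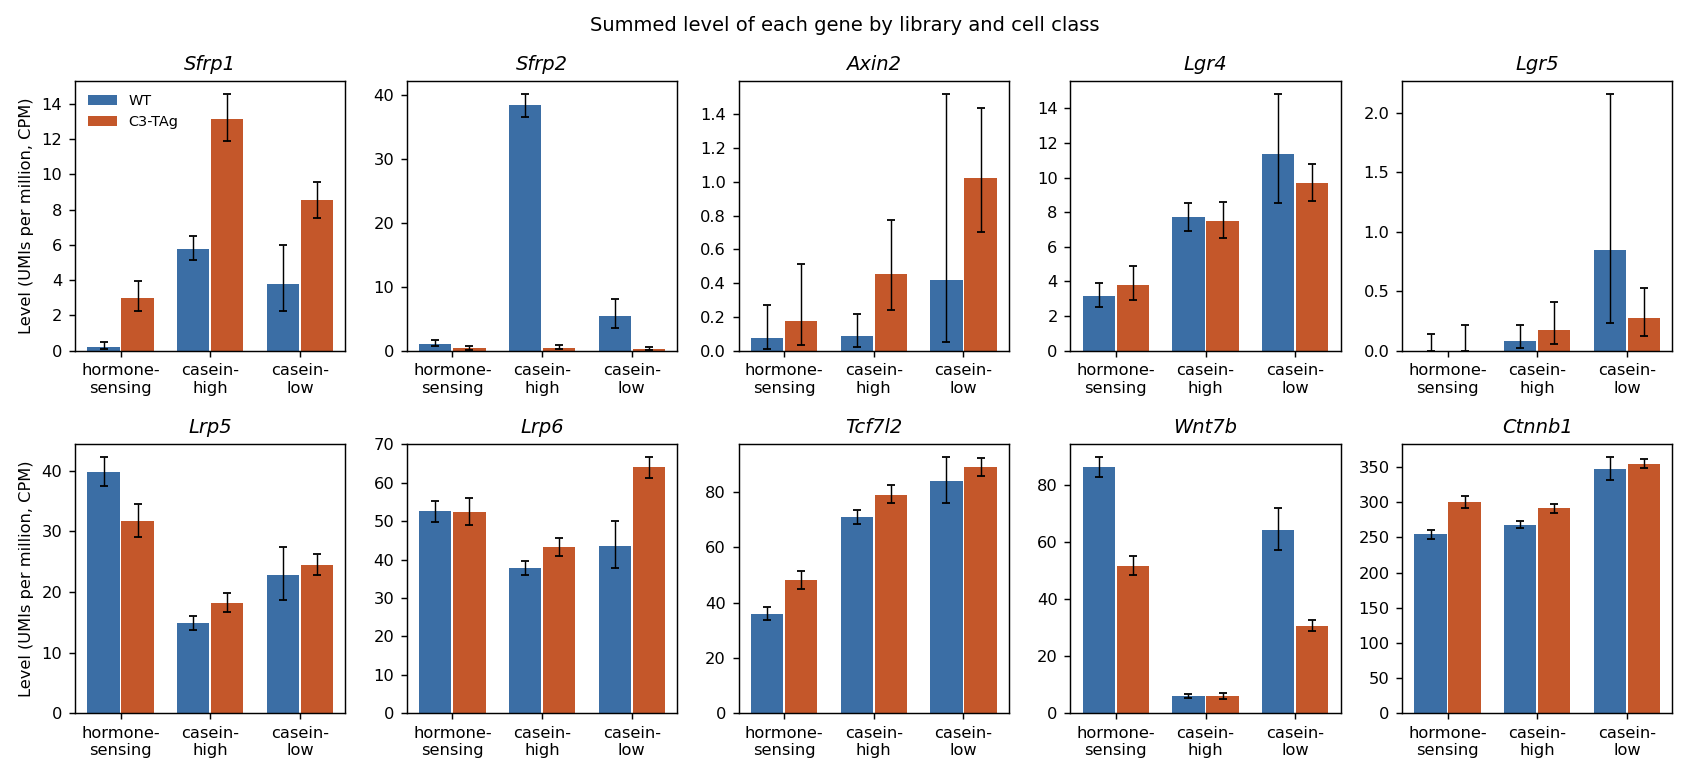
Bars give the level (CPM, linear axes from 0, a separate scale per gene) of each of the 10 genes in the 3 cell classes of the WT and C3-TAg libraries, and whiskers the exact Poisson 95% interval. Sfrp2 reached 38.4 CPM in WT casein-high cells and was at most 0.489 CPM in the C3-TAg classes, and Wnt7b was lowest in the casein-high cells of both libraries.

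Sfrp2 encodes a secreted Frizzled-related protein. In the WT library it stood at 38.4 CPM (36.7 to 40.2) in casein-high, 5.48 (3.58 to 8.02) in casein-low and 1.13 (0.760 to 1.61) in hormone-sensing cells, from 1797, 26 and 30 UMIs. In the C3-TAg library the same classes had 0.489 (0.267 to 0.820), 0.341 (0.170 to 0.610) and 0.353 (0.130 to 0.768) CPM, from 14, 11 and 6 UMIs. The WT casein-high class thus stood above every other, and the intervals of the 3 C3-TAg classes overlapped one another. Between the libraries Sfrp2 was 78.6-fold lower in C3-TAg casein-high cells, a log2 ratio of -6.30 (-7.17 to -5.55). It was 16.1-fold lower in casein-low cells (-4.01, -5.17 to -2.94). In hormone-sensing cells the log2 ratio was -1.67 (-3.23 to -0.39), and 19 of the 30 WT UMIs lay in the 35 cells outside the receptor clusters. Inside these clusters the cells held 0 UMIs in C3-TAg and 11 in WT, and against a floor of 3 counts per library the level was at least 1.84-fold lower in C3-TAg. The WT level in hormone-sensing cells was 2.93% of that in casein-high cells, and 1.10% inside the receptor clusters. The milk proteins Csn2 and Csn3 stood at 2.86% and 2.62%, and at 0.824% and 1.14% inside the clusters, so that Sfrp2 there stood at about the same share as these milk transcripts. No difference between the libraries is read from it.

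Sfrp2 transcripts were unevenly spread over the WT casein-high cells. At least 1 UMI was found in 878 of 3745 cells (23.4%, with an exact Clopper-Pearson 95% interval of 22.1 to 24.8%) at a median depth of 11802 UMIs, against 0.589% of WT hormone-sensing cells at 9429.5. In C3-TAg casein-high cells the share was 0.562% at a median of 10203 UMIs. After each cell was thinned to 2000 UMIs, which left out 8 WT and no C3-TAg casein-high cell, the shares were 6.26% (5.51 to 7.09) for WT and 0.0401% (0.00102 to 0.223) for C3-TAg. The 188 WT casein-high cells with the most Sfrp2, 5% of the class, held 48.0% of its UMIs there, and the highest cell had 19. In C3-TAg casein-high cells no cell had more than 1.

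Sfrp1, the other secreted Frizzled-related protein of the list, ran the opposite way. It stood at 5.79 CPM (5.12 to 6.53) in WT casein-high cells and at 13.2 (11.9 to 14.6) in C3-TAg ones. In casein-low cells the values were 3.79 (2.25 to 5.99) and 8.52 (7.54 to 9.59). The intervals of the libraries were separate in both classes, and the WT casein-low value rested on 18 UMIs. Sfrp1 was 2.27-fold higher in C3-TAg casein-high cells (log2 ratio 1.18, 0.96 to 1.41) and 2.25-fold higher in casein-low cells (1.17, 0.48 to 1.94). After thinning, 0.883% of WT and 2.21% of C3-TAg casein-high cells had a Sfrp1 UMI, with intervals of 0.609 to 1.24% and 1.67 to 2.86%. Among WT hormone-sensing cells 0 of 2708 had one after thinning and 6 of 2718 (0.221%) before it.

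The 6 Sfrp1 UMIs of WT hormone-sensing cells gave 0.225 CPM and the 51 of C3-TAg ones 3.00 CPM, a 13.3-fold difference over the whole class (log2 ratio 3.73, 2.51 to 5.25). Inside the receptor clusters the levels were 0.115 and 0.153 CPM, from 3 and 2 UMIs, with a log2 ratio of 0.41 (-3.17 to 3.54). The 375 C3-TAg cells outside these clusters had 12.4 CPM (9.16 to 16.4) and held 49 of the 51 UMIs. The difference in hormone-sensing cells was therefore carried by cells of the class with little Pgr.

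**Figure D2:**
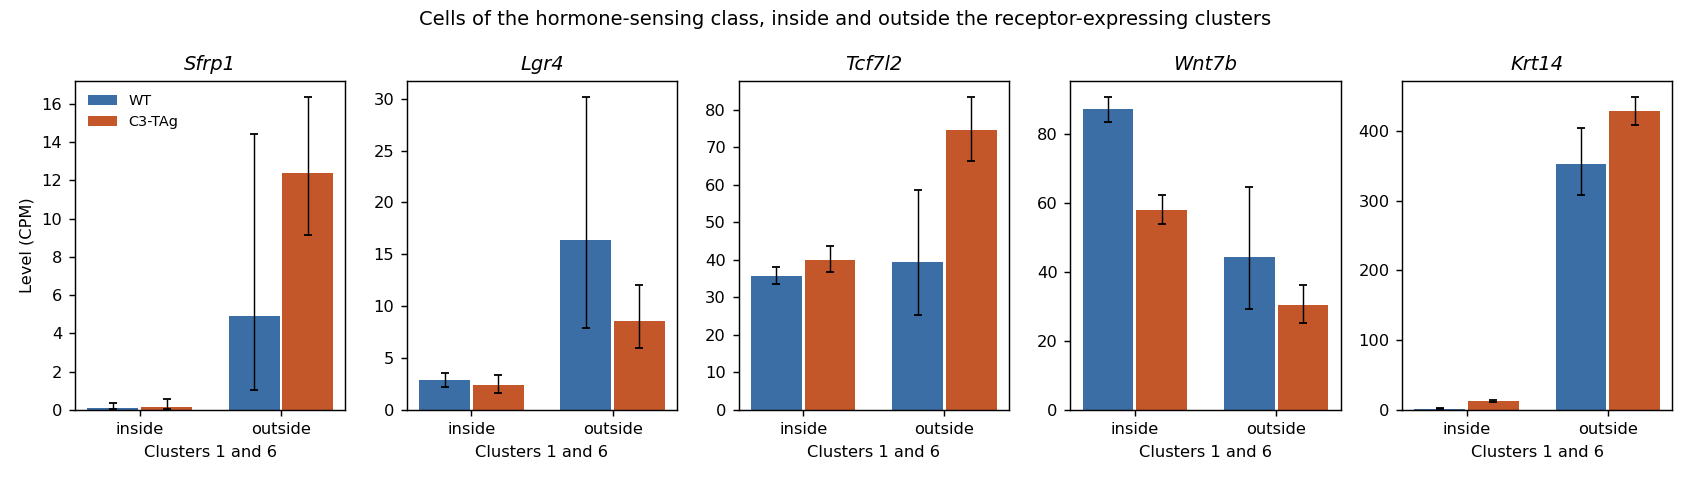
Bars give the level (CPM) of 4 of the genes and of Krt14 in hormone-sensing-class cells inside and outside clusters 1 and 6, for WT and C3-TAg, with exact Poisson 95% intervals. Sfrp1 was below 0.16 CPM inside these clusters in both libraries and at 12.4 CPM in the 375 C3-TAg cells outside them, where Krt14 stood at 428 CPM.

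Wnt7b is a Wnt ligand that signals through beta-catenin. In WT it stood at 86.2 CPM (82.7 to 89.8) in hormone-sensing, 64.0 (57.0 to 71.6) in casein-low and 6.11 (5.43 to 6.86) in casein-high cells. In C3-TAg these were 51.6 (48.2 to 55.1), 30.6 (28.8 to 32.6) and 6.04 (5.17 to 7.01). The order of the classes was the same in both libraries, and only the 2 casein-high values overlapped. Wnt7b was 1.67-fold lower in C3-TAg hormone-sensing cells (log2 ratio -0.74, -0.85 to -0.63) and 2.09-fold lower in casein-low cells (-1.06, -1.25 to -0.87). In casein-high cells the ratio was -0.02 (-0.30 to 0.26). Inside the receptor clusters Wnt7b was at 87.2 (WT) and 58.0 CPM (C3-TAg), and the log2 ratio of -0.59 (-0.71 to -0.47) lay at the edge of the threshold. Without cells with at least 2 G2M UMIs the log2 ratios were -0.59 in hormone-sensing, -0.75 in casein-high and -0.63 in casein-low cells, so that the casein-high value passed 1.5-fold there. After thinning, 14.5% of WT and 10.4% of C3-TAg hormone-sensing cells had a Wnt7b UMI, with intervals of 13.2 to 15.9% and 9.07 to 11.8%. The shares in casein-high cells were 1.47% and 1.28%, at unthinned median depths of 11802 and 10203 UMIs against 9429.5 and 7828.5.

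Lrp5 and Lrp6, the co-receptors that take up the Wnt signal beside Frizzled, differed little. Lrp5 stood at 39.8, 14.8 and 22.7 CPM in WT hormone-sensing, casein-high and casein-low cells and at 31.6, 18.2 and 24.5 in C3-TAg. Its log2 ratios were -0.33 (-0.48 to -0.18), 0.29 (0.13 to 0.46) and 0.11 (-0.18 to 0.41). Lrp5 was thus highest in hormone-sensing cells of both libraries. Lrp6 stood at 52.5, 37.7 and 43.6 CPM in WT and at 52.4, 43.2 and 63.9 in C3-TAg. Its ratio came closest to the threshold in casein-low cells, at 1.47-fold higher in C3-TAg (log2 ratio 0.55, 0.35 to 0.77). In hormone-sensing cells its interval ran from -0.13 to 0.12. The log2 ratios inside the receptor clusters were -0.31 for Lrp5 and -0.05 for Lrp6.

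Lgr4 and Lgr5 are receptors for R-spondins. Lgr4 had 3.15, 7.72 and 11.4 CPM in WT hormone-sensing, casein-high and casein-low cells, and 3.82, 7.51 and 9.67 in C3-TAg. The libraries' intervals overlapped in every class, and both libraries had the lowest value in hormone-sensing cells. The log2 ratios were 0.28 (-0.21 to 0.76), -0.04 (-0.29 to 0.21) and -0.23 (-0.66 to 0.21). Inside the receptor clusters the first turned to -0.26 (-0.91 to 0.36), from 2.84 CPM (WT) and 2.38 CPM (C3-TAg). It passed 1.5-fold, at 0.78, with the filter of 2000 UMIs and 5% mitochondrial UMIs, and at 0.59 with a hormone score threshold of 3. Lgr5, a marker of stem cells in several epithelia, was at the edge of detection. Hormone-sensing cells had 0 Lgr5 UMIs in both libraries, and by the limit of 3 counts up to 0.110% of WT and 0.148% of C3-TAg cells could have one. The exact Clopper-Pearson upper bounds were 0.136% and 0.182%, and both limit cells with a detected UMI and not cells that express the gene. Casein-high cells had 4 UMIs in WT and 5 in C3-TAg, and casein-low cells 4 and 9, too few to be counted as measured.

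Ctnnb1 encodes beta-catenin, which also links cadherins to the cytoskeleton. It stood at 254 CPM in WT hormone-sensing, 268 in casein-high and 347 in casein-low cells, and at 300.3, 291 and 355 in C3-TAg. Casein-low cells were highest in both libraries, and the 2 casein-low intervals overlapped. Its log2 ratios were 0.24 (0.19 to 0.29), 0.12 (0.08 to 0.16) and 0.03 (-0.05 to 0.10), and 0.15 inside the receptor clusters. With TMM factors they were -0.22 in casein-high and -0.27 in casein-low cells, as those of Tcf7l2 were -0.18 and -0.21. Tcf7l2, a DNA-binding partner of beta-catenin, stood at 35.9, 70.9 and 84.0 CPM in WT and at 48.1, 79.0 and 89.0 in C3-TAg, in the same order of classes. Its log2 ratio was 0.42 (0.28 to 0.56) in hormone-sensing cells, 0.16 (0.00 to 0.32) inside the receptor clusters, and 0.16 and 0.08 in the casein-high and casein-low classes.

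Axin2, a scaffold of the beta-catenin destruction complex that is itself switched on by the pathway, was at very low counts. WT hormone-sensing, casein-high and casein-low cells had 2, 4 and 2 UMIs, and C3-TAg cells 3, 13 and 33. Its level in casein-low cells was 0.421 CPM in WT and 1.02 in C3-TAg. The log2 ratio was 1.28, with an interval from -0.69 to 4.38 that includes no difference. Both WT casein-low UMIs came from the 23 cells marked as non-epithelial or basal, and the other 553 WT cells had 0 UMIs against 33 in the corresponding 3381 C3-TAg cells. With a casein threshold of 0.2% the log2 ratio in casein-low cells was 0.18 and 2 members passed 1.5-fold, since Sfrp2 then had fewer than 20 UMIs. As a mean over cells of each cell's CPM it was -0.15. In casein-high cells, below the count minimum, the levels were 0.0855 and 0.454 CPM and the log2 ratio was 2.41 (0.71 to 4.48).

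**Figure D3:**
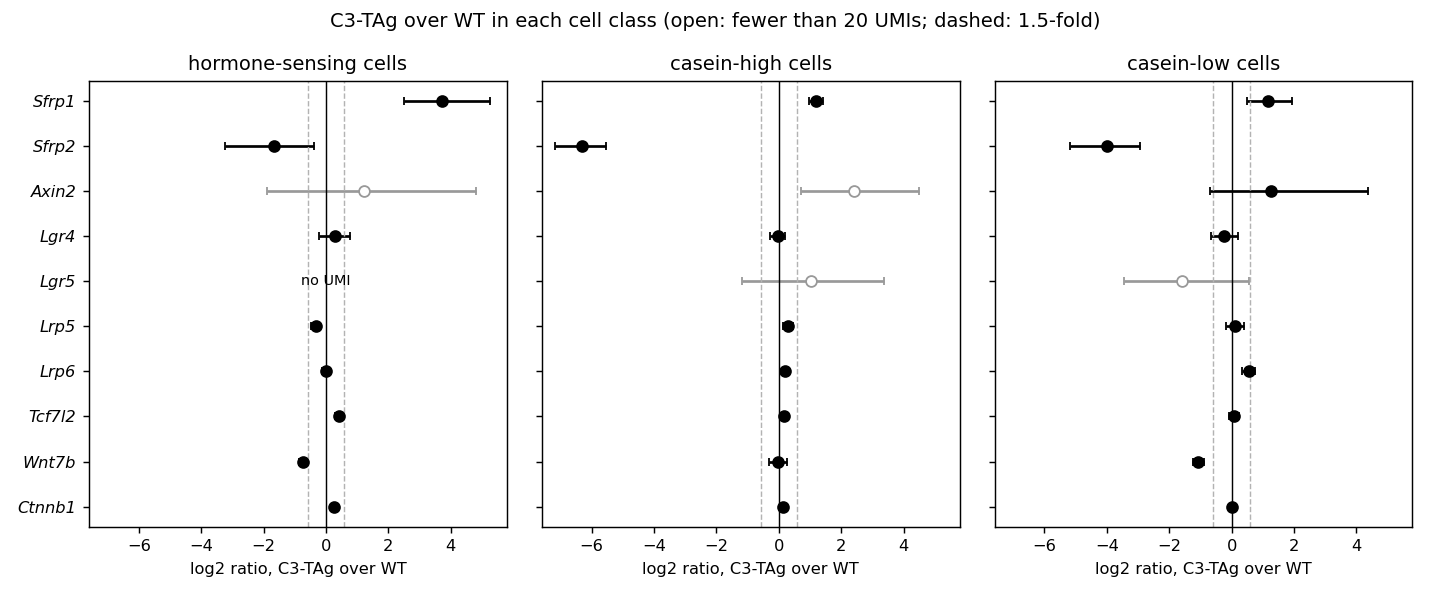
Points give the log2 ratio of C3-TAg over WT for each gene in the 3 classes, with exact conditional Poisson 95% intervals. Open points have fewer than 20 UMIs and dashed lines mark 1.5-fold. The points of Sfrp2 lie left of the dashed lines in all 3 classes and those of Sfrp1 right of them, and those of Lrp5, Lrp6, Lgr4, Tcf7l2 and Ctnnb1 between them.

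The classes were next compared within each library, so that both sides came from the same library. Median depths still differed between the classes, from 7609 to 11802 UMIs per cell in WT and from 7828.5 to 10203 in C3-TAg. Wnt7b was higher in the hormone-sensing cells of both libraries and Lrp5 in those of WT, and Sfrp1, Lgr4 and Tcf7l2 were lower in both. In WT, 6 of 8 measured members passed 1.5-fold between hormone-sensing and all other cells, 2 higher and 4 lower, where 58.6% of all genes passed, 37.5% higher and 21.1% lower. In C3-TAg it was 5 of 9, 1 higher and 4 lower, against 44.3% of all genes, 19.9% higher and 24.4% lower. The members' median log2 ratio was -0.56 in WT and -0.22 in C3-TAg, beside 0.28 and -0.08 over all measured genes.

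Wnt7b was 7.53-fold higher in WT hormone-sensing cells, at 86.2 against 11.4 CPM in all other WT cells (log2 ratio 2.91, 2.78 to 3.05). In C3-TAg it was 2.70-fold higher, at 51.6 against 19.1 CPM (1.44, 1.31 to 1.56). Lrp5 was 2.56-fold higher in WT hormone-sensing cells (1.36, 1.22 to 1.49) and 1.47-fold higher in C3-TAg (0.55, 0.41 to 0.70), where it missed the threshold. Tcf7l2 was 2.01-fold lower in WT (-1.01, -1.11 to -0.90) and 1.75-fold lower in C3-TAg hormone-sensing cells (-0.81, -0.92 to -0.70). Lgr4 was 2.55-fold lower in WT (-1.35, -1.71 to -1.01) and 2.26-fold lower in C3-TAg (-1.18, -1.57 to -0.80). Sfrp1 was 24.9-fold lower in WT (-4.64, -6.10 to -3.50) and 3.57-fold lower in C3-TAg hormone-sensing cells (-1.84, -2.28 to -1.42). With only the cells whose class and cluster agreed, the C3-TAg values were -6.13 for Sfrp1, -1.86 for Lgr4, -1.08 for Tcf7l2 and 1.64 for Wnt7b. The Sfrp1 value then rested on 2 UMIs in hormone-sensing cells. Lrp5 in C3-TAg passed 1.5-fold under that setting, at 0.61. It also passed without cells with at least 2 G2M UMIs (0.84) and as a mean over cells of each cell's CPM (0.59). With a stricter barcode filter (at least 2000 UMIs and at most 5% mitochondrial UMIs) the C3-TAg values of Sfrp1, Lgr4 and Tcf7l2 were -0.52, -0.55 and -0.48, short of 1.5-fold. In C3-TAg that filter kept 594 of 2024 hormone-sensing, 1836 of 2492 casein-high and 2713 of 3401 casein-low cells.

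Sfrp2 was 31.4-fold lower in WT hormone-sensing than in all other WT cells (1.13 against 35.4 CPM, log2 ratio -4.97, -5.54 to -4.45). In C3-TAg the values were 0.353 and 0.410 CPM (-0.22, -1.79 to 1.10). Axin2 was lower in C3-TAg hormone-sensing cells, at 3 UMIs against 46 (-2.10, -4.43 to -0.46). Ctnnb1 and Lrp6 stayed within 1.5-fold in both libraries, with log2 ratios of -0.12 and 0.46 in WT and of -0.11 and -0.05 in C3-TAg.

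Among cells outside the hormone-sensing class, casein-high cells had less Wnt7b than casein-low cells in both libraries, and WT casein-high cells had more Sfrp2. In WT 4 of 8 measured members passed 1.5-fold, 2 in each direction, against 33.9% of all genes, 8.14% higher and 25.8% lower. In C3-TAg 3 of 9 passed, 1 higher and 2 lower, against 39.6%, with 8.93% higher and 30.6% lower. The members' medians were -0.31 and -0.36, beside -0.24 and -0.30 over all measured genes. Wnt7b was 10.5-fold lower in WT casein-high cells (log2 ratio -3.39, -3.63 to -3.15) and 5.07-fold lower in C3-TAg (-2.34, -2.58 to -2.11). Sfrp2 was 7.02-fold higher in WT casein-high cells (2.81, 2.25 to 3.43) but within 1.5-fold in C3-TAg (0.52, -0.73 to 1.80). That C3-TAg value rested on 25 UMIs and passed 1.5-fold under some alternatives. It was 1.16 at a casein threshold of 0.2%, 0.81 with TMM scaling and 0.68 as a mean over cells of each cell's CPM. Without milk, mitochondrial and ribosomal protein genes in the total it was 0.72. Sfrp1 passed by little, with WT at 0.61 (-0.08 to 1.39) and C3-TAg at 0.63 (0.40 to 0.86). The WT interval includes no difference, and the WT value was 0.42 to 0.55 under 4 alternatives and the C3-TAg value 0.51 at a casein threshold of 1%, short of 1.5-fold. Lrp5 was 1.53-fold lower in WT casein-high cells (-0.62, -0.91 to -0.31) and Axin2 2.25-fold lower in C3-TAg ones (-1.17, -2.22 to -0.21). With TMM scaling, the WT value of Lrp5 was -0.28, and the C3-TAg value of Axin2 was -0.33 without cells with at least 2 G2M UMIs.

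Because C3-TAg cells had less casein, the genes were also read within ranges of the casein share. Cells outside the hormone-sensing class were divided at 0.2, 0.5, 1, 2, 4 and 8% of UMIs from the 4 caseins, from 142 to 3000 cells per group. Within a range the shares still differed: the median was 0.0792% in WT and 0.0169% in C3-TAg for the lowest range, and 11.7% and 10.3% for the highest. In WT, Sfrp2 stood at 4.80 CPM in the lowest group and then at 6.10, 7.31, 16.3, 24.4, 37.3 and 70.0 CPM in the highest. In C3-TAg the same groups had 0.247, 1.003, 0.566, 0.387, 0.484, 0.543 and 0.555 CPM, each from 1 to 7 UMIs. Sfrp2 thus followed the casein share in WT cells, and in no range did C3-TAg cells reach the lowest WT value. The median depth was also higher at higher casein shares, between 7130 and 14462.5 UMIs per WT cell and between 8329 and 12549 per C3-TAg cell, and its part in the result was not tested.

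Sfrp1 was between 2.18 and 6.89 CPM in the WT groups and between 8.09 and 13.6 CPM in the C3-TAg groups. The log2 ratio of C3-TAg over WT ran from 0.76 in the highest casein group, where the interval of -0.001 to 1.46 includes no difference, to 1.89 in the lowest (0.65 to 3.53). Wnt7b was lower at higher casein shares in both libraries. It was at 80.4, 48.8, 19.0, 13.4, 5.91, 3.67 and 1.96 CPM in WT and at 32.2, 19.6, 13.8, 7.61, 3.03, 2.89 and 0 CPM in C3-TAg. At under 0.2% and at 0.2 to 0.5% casein, Wnt7b was 2.50-fold lower in C3-TAg in both groups (log2 ratio -1.32, with intervals of -1.55 to -1.08 and -1.75 to -0.90). It was also 1.76-fold lower at 1 to 2% (-0.82, -1.32 to -0.32) and 1.95-fold lower at 2 to 4% (-0.97, -1.70 to -0.27), where the casein-high class as a whole gave -0.02. At 0.5 to 1% and at 4 to 8% it was within 1.5-fold, at -0.47 and -0.34. Tcf7l2 stayed between 63.9 and 90.3 CPM in all groups of both libraries.

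**Figure D4:**
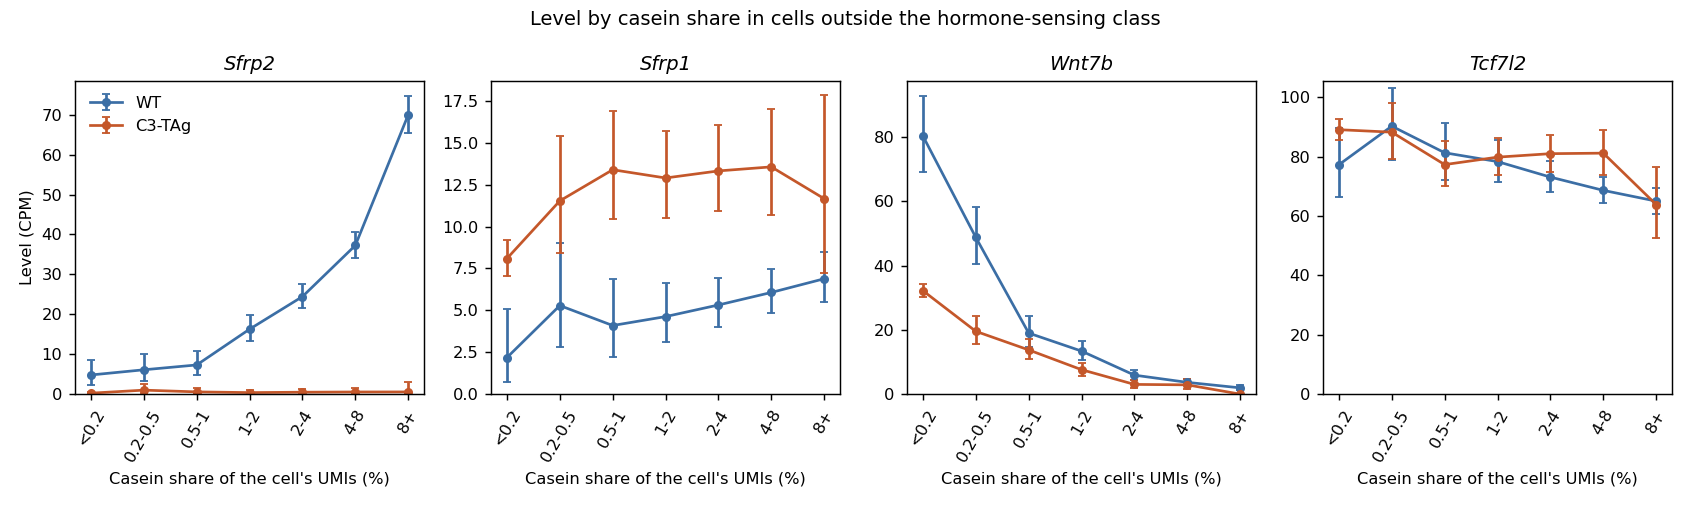
Points give the level (CPM, linear axes) of 4 genes in cells outside the hormone-sensing class, by the share of the cell's UMIs from 4 caseins (%), for WT and C3-TAg, with exact Poisson 95% intervals. In WT, Sfrp2 went from 4.80 to 70.0 CPM while Wnt7b went from 80.4 to 1.96, and in C3-TAg Sfrp2 stayed at or below 1.003 CPM.

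Clustering of both libraries together gave 10 clusters, and 8 groups of 1 library and 1 cluster had at least 100 cells. Each of these clusters was almost wholly of 1 library, so a cluster may stand for its library and not for a cell state. Sfrp2 was at 47.8 CPM in WT cluster 3 (Csn2 at 29678 CPM) and at 15.7 in WT cluster 5 (Csn2 at 10285 CPM), and at or below 0.929 CPM in the other 6 groups. Sfrp1 was at 12.98 and 13.5 CPM in the casein-rich C3-TAg clusters 2 and 7, and at 0.114 and 0.150 CPM in clusters 1 and 6, which carried the hormone receptors. Wnt7b was at 88.5 CPM in WT cluster 1 and at 58.9 in C3-TAg cluster 6. Outside the receptor clusters it was highest in C3-TAg cluster 4, at 34.5 CPM, and lowest in WT cluster 3, at 2.45.

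C3-TAg cluster 8, with 426 cells, stood apart in 2 of the genes. Tcf7l2 was at 144 CPM there (133 to 156), against 35.99 to 82.6 in the other 7 groups. Axin2 was at 3.02 CPM (1.61 to 5.16, 13 UMIs), against 0 to 0.801. In that cluster 91.1% of cells had at least 2 G2M UMIs, and the extracellular matrix gene Fn1 and the cell cycle inhibitor Cdkn2a were at 187 and 307 CPM. C3-TAg cluster 4 shared these features in part, with 83.2% of such cells and Fn1 and Cdkn2a at 119 and 132 CPM. In C3-TAg cluster 7 the share of such cells was 100%. Since the clusters were formed from all genes, these are descriptions and not tests.

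**Figure D5:**
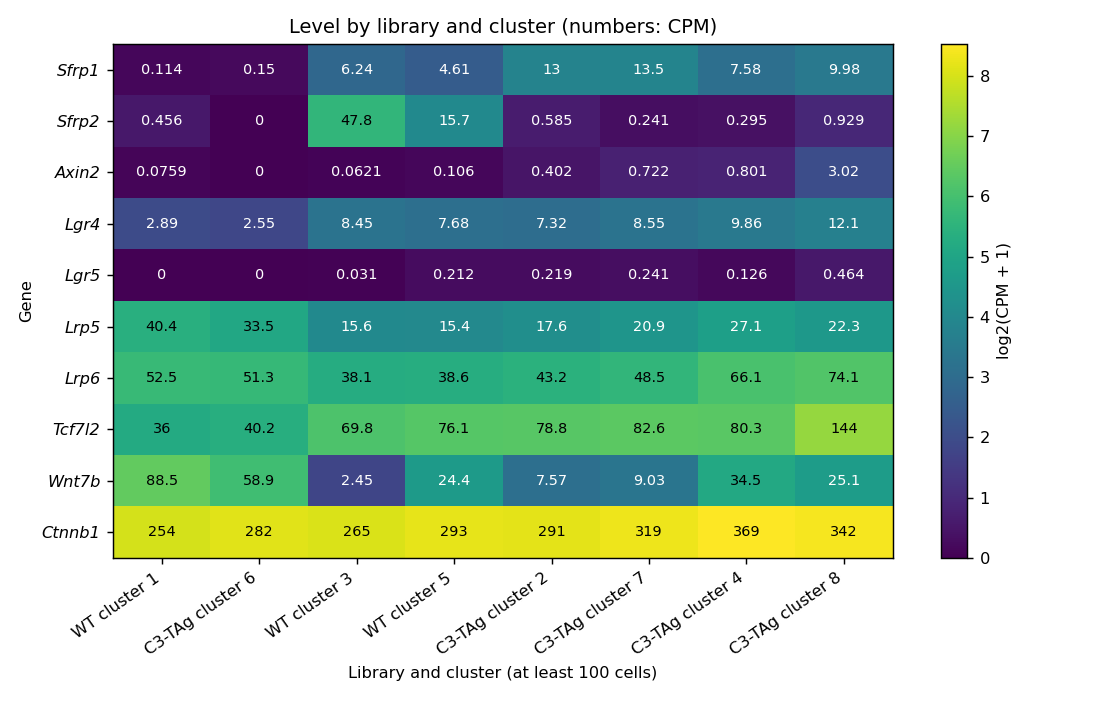
Colours give log2(CPM + 1) and the printed numbers CPM for each gene in the 8 groups of 1 library and 1 cluster with at least 100 cells. Sfrp2 is bright only in WT clusters 3 and 5 (47.8 and 15.7 CPM). Wnt7b is brightest in WT cluster 1 and C3-TAg cluster 6 (88.5 and 58.9 CPM), followed by C3-TAg cluster 4 (34.5 CPM), and Tcf7l2 is brightest in C3-TAg cluster 8.

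Proliferation differed between the libraries, so cells with at least 2 G2M UMIs were set against the rest within the C3-TAg library. In casein-high cells Sfrp1 was at 13.3 CPM in the 1925 cells with such UMIs and at 12.7 in the 567 without, and Tcf7l2 at 80.2 and 73.7. Wnt7b was at 6.59 and 3.60 CPM there (log2 ratio 0.87, 0.18 to 1.64), but in casein-low cells at 28.9 and 42.0 (-0.54, -0.77 to -0.29). In the 1586 hormone-sensing cells without such UMIs, Sfrp1 was at 0.407 CPM and Tcf7l2 at 40.9, against 9.76 and 66.6 in the 438 with them. This split overlaps that by receptor cluster: the 375 cells outside held 49 of the 51 Sfrp1 UMIs and had Mki67 at 267 CPM. Cells with such UMIs were also deeper, with median UMIs of 9636 against 7552.5 in hormone-sensing cells. In casein-high cells these were 10701 and 8805, and in casein-low cells 9220.5 and 5963. Sfrp2 stayed below 1 CPM in every group with or without such UMIs. With cells of at least 2 G2M UMIs left out of both libraries, the C3-TAg over WT log2 ratios in casein-high cells were -5.35 for Sfrp2 and 1.12 for Sfrp1. That of Sfrp1 in hormone-sensing cells was 0.82, from 11 UMIs over both libraries, too few to be counted as measured.

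For members with at least 20 CPM in a group, up to 3 genes with the most similar pattern were named by Pearson's r of log2(CPM + 1) over the 8 library-cluster groups, among 7322 genes. These groups came from 2 libraries, had median depths from 7595 to 12751.5 UMIs per cell and were formed with the genes compared here, and with 8 points many genes reach high values. The nearest to Sfrp2 were Hal (histidine ammonia-lyase, 0.98), Itgb3 (an integrin subunit, 0.98) and Hpgd (a prostaglandin-degrading enzyme, 0.97). Hal ranged from 0 to 22.8 CPM and Itgb3 from 0.674 to 72.3. Among the nearest to Wnt7b were Shisa4 (0.99) and Rab12 (a small GTPase, 0.99). Lrp5 was nearest to Cox17, Fam20b and Sri (each 0.99), and Lrp6 to Cmtm7, Rsbn1l (both 0.99) and Tsr2 (0.98). Tcf7l2 was nearest to Ptbp1 (a splicing regulator), Prmt6 and Gpr137c (each 0.98), and Ctnnb1 to Aebp2, Tln1 (talin) and Map3k7 (each 0.99).

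The other genes of the pathway were taken as 83 genes in 8 role lists. Between C3-TAg and WT, 24 of 52 measured passed 1.5-fold in hormone-sensing cells (19 higher, 5 lower), 17 of 50 in casein-high cells (13 higher, 4 lower) and 30 of 50 in casein-low cells (19 higher, 11 lower). Beside these counts stand the shares over all genes, 32.0, 41.6 and 51.9%. Inside the receptor clusters the hormone-sensing count was 6 higher and 9 lower of 49, against 12.3% and 9.65% of all genes. The split depended on the scaling: with TMM factors it was 14 higher and 9 lower, 9 and 10, and 9 and 14. Of the genes named below, Dvl3 and Ctnnbip1 in hormone-sensing cells, Myc in casein-high cells, and Wls, Ryk, Tcf7l1, Ctnnbip1 and Myc in casein-low cells were within 1.5-fold under TMM, in the same direction. The medians of these genes were 0.30, 0.25 and 0.23, beside 0.15, 0.32 and 0.35 over all genes.

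Among the ligands, 4 of 7 measured were higher and 1 lower in C3-TAg hormone-sensing cells, where 22.8% and 9.20% of all genes were. Within the receptor clusters it was 1 higher, Wnt5a, and 3 lower, Wnt4, Wnt11 and Rspo1, of 6, where 12.3% and 9.65% of all genes were. There Rspo1 rested on 9 C3-TAg and 29 WT UMIs, and the interval of its log2 ratio (-0.69, -1.96 to 0.43) includes no difference. Wnt4, which acts downstream of progesterone, stood at 353 (WT) and 167 CPM (C3-TAg) (log2 ratio -1.08, -1.14 to -1.02), and at 359 and 210 CPM inside the receptor clusters. Wnt5a, a ligand that mostly signals without beta-catenin, was at 47.8 and 95.2 CPM (0.99, 0.89 to 1.10), and at 48.8 and 121 inside the clusters. Wnt4 and Wnt5a thus differed in opposite directions, with Wnt7b on the side of Wnt4. Wnt5b was at 4.77 and 38.3 CPM over the class but at 2.34 and 2.45 inside the clusters, so that its difference was carried by the cells outside them. In casein-low cells Wnt4 was at 69.7 CPM in WT and 38.6 in C3-TAg (-0.85), and Rspo1, an R-spondin, at 102 and 32.5 (-1.66, -1.81 to -1.50). Of the casein-low cells, 51 of 576 in WT lay in receptor cluster 1, where Wnt4 was at 359 CPM. In C3-TAg 55 of 3401 lay in receptor cluster 6, where it was at 210 CPM. The part of these cells in the casein-low difference of Wnt4 was not tested.

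Among the receptors, Fzd10 was at 30.6 CPM in WT and 8.88 in C3-TAg hormone-sensing cells (log2 ratio -1.79, -2.05 to -1.53), and 2.79-fold lower inside the receptor clusters. Fzd5 was at 9.60 and 31.0 CPM in casein-high cells (1.69, 1.53 to 1.86) and at 10.1 and 20.5 in casein-low cells. In casein-low cells Fzd7 and the R-spondin receptor Lgr6 were lower in C3-TAg, at 24.0 and 15.7 CPM and at 23.8 and 15.1, and the co-receptor Ryk was higher, at 46.8 and 76.9. Of the 13 receptors measured in hormone-sensing cells, 5 were higher and 1 lower, where 22.8% and 9.20% of all genes were. Inside the receptor clusters it was 2 higher, Ror1 and Ror2, and 1 lower, Fzd10, of 12, against 12.3% and 9.65% of all genes. In casein-high cells it was 3 and 1 of 13, where 31.1% and 10.5% of all genes were higher and lower. In casein-low cells it was 5 and 3 of 12, against 37.2% and 14.7%. Wls, which carries Wnt ligands to the cell surface, was at 28.6 CPM in WT and 52.6 in C3-TAg casein-low cells (0.88, 0.62 to 1.14).

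Nkd2, an inhibitor that binds Dishevelled, had the largest ratio among these named genes in casein-low cells. It was at 0.421 CPM in WT (2 UMIs) and 24.2 in C3-TAg (782 UMIs), with a log2 ratio of 5.85 (3.99 to 8.89). By cluster it was at 30.6 CPM in C3-TAg cluster 4 and 36.7 in C3-TAg cluster 8, and at or below 1.69 in the other 6 groups. Dvl3, a Dishevelled protein, was at 16.3 CPM in WT and 24.6 in C3-TAg hormone-sensing cells, and within 1.5-fold inside the receptor clusters. Among nuclear factors, Tcf7l1 was at 16.8 and 27.0 CPM and the co-repressor Tle3 at 75.4 and 41.9 in casein-low cells. Ctnnbip1, an inhibitor of the binding of beta-catenin to TCF proteins, was at 50.9 and 82.6 CPM in hormone-sensing cells, and at 50.3 and 67.1 inside the receptor clusters. In casein-low cells it was at 88.7 and 133.

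Known targets of the pathway went in both directions. Myc, a growth-promoting transcription factor, was higher in C3-TAg cells of all 3 classes: 133 against 54.5 CPM in hormone-sensing, 142 against 76.7 in casein-high and 202 against 114 in casein-low cells. Ccnd1, the cyclin that drives G1 phase through CDK partners, was lower in all 3: 36.1 against 116 CPM, 30.1 against 66.7 and 37.7 against 189. Both kept these directions inside the receptor clusters, Myc at 115 against 53.4 and Ccnd1 at 37.9 against 116 CPM. Cd44, a hyaluronan receptor, was at 40.1 CPM in C3-TAg and 6.91 in WT hormone-sensing cells, but at 6.75 and 4.92 inside the receptor clusters, and in casein-high cells it was at 29.2 and 71.2. Procr, a protein C receptor that also marks endothelial cells, was at 2.48 CPM in C3-TAg and 24.9 in WT casein-low cells. Without the 23 WT and 20 C3-TAg cells marked as non-epithelial or basal it was at 0.374 and 2.60 CPM, from 12 UMIs in each library.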

How the data were processed

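The authors deposited 1 matrix of raw UMI counts per library. The submitters' processing notes name Cell Ranger 3.1.0 and the mm10 build. The matrices held 8993 WT and 9575 C3-TAg barcodes with 91133082 and 91932121 UMIs. Barcodes with at least 500 genes, at least 1000 UMIs and at most 10% mitochondrial UMIs were kept (7406 and 8458). Scrublet then removed 367 (4.96%) and 541 (6.40%) as doublets, leaving medians of 10294 and 8683 UMIs per cell.

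Raw counts were summed per library and class. Levels and ratios have exact Poisson intervals and shares of cells exact Clopper-Pearson intervals, all at 95% and for counting error only, since 1 library per group allows no test. The ratio code was tested on simulated data. Shares were also taken after thinning to 2000 UMIs. Clusters came from 2000 variable genes, 30 principal components, 15 neighbours and Leiden at a resolution of 0.5, on both libraries together. Cells were marked as non-epithelial with at least 5 UMIs per 10000 from 16 marker genes, and as basal with a UMI of Krt5 and one of Acta2, Myh11, Oxtr or Cnn1.

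All 10 members were named. From each of the 8 role lists, the text names per class up to 2 genes with the highest and 2 with the lowest ratio, of those with at least 20 CPM in a library and past 1.5-fold. Other genes named beside them are markers of cell types or states. One gene that the rule for similar patterns picked is not reported here. The members and lists were chosen with earlier results of these data known. In all, 15 alternatives were computed, including edgeR's TMM scaling. The tools were scanpy 1.11.5, leidenalg 0.10.2, scikit-learn 1.9.0, scipy 1.17.1, numpy 2.4.6 and pandas 2.3.3 in Python 3.11.15, and edgeR 4.0.16 in R 4.3.3.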

Additional observations from a re-analysis of the deposited data

How the results depend on the processing

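Of 59 measured member ratios, 27 passed 1.5-fold, and 15 of these kept at least 20 UMIs and passed in the same direction under all 13 alternatives that give ratios. Of the 105 counts of members past the threshold under the alternatives, 99 stayed within 1.5 times the count in the report. For C3-TAg over WT, the count in hormone-sensing cells was 1, against 3, where class and cluster had to agree, an alternative chosen after seeing the data. In casein-high cells it was 4, against 2, with no minimum of UMIs, and in casein-low cells 2, against 4, at a casein threshold of 0.2%. For hormone-sensing over other cells in C3-TAg it was 2, against 5, with at least 2000 UMIs and at most 5% mitochondrial UMIs. For casein-high over casein-low cells in WT it was 2, against 4, with that filter and also 2 with a fold of 2. Of 351 values of ratios past 1.5-fold, 1 changed sign: Axin2 in casein-low cells, C3-TAg over WT, at -0.15 as a mean over cells of each cell's CPM. Of 416 values of the 32 ratios within 1.5-fold, 34 changed sign, none of these beyond 0.27 in size, and 10 of the 32 ratios passed 1.5-fold under an alternative. Except where fewer UMIs or a higher fold decide a count by construction, the cause was not tested. TMM factors moved hormone-sensing over other cells by -0.27 (WT) and -0.01 (C3-TAg), and casein-high over casein-low by 0.34 and 0.29, on the log2 scale. Depth limits Axin2 and Lgr5, with at most 33 and 9 UMIs in a class. No paired analysis was possible because each group had 1 library, and for the same reason no replicate could be left out.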
